A study of Mus musculus with 9 samples.

Results

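Chitinase-like and resistin-like genes were examined in the livers of mice 48 h after injection of an agonist antibody against CD40, an activating receptor of B cells, dendritic cells, and macrophages. The 6 genes, out of 24341 in the deposited table, were Chil3, Chil4, Chil1, and Chit1 of the chitinase family and Retnlg and Retnla of the resistin family. They were chosen by name with their values in these mice already known, so their levels are given as a description. All 9 mice were wild-type C57BL/6 (genotype WT), 3 of them given anti-CD40 (mice 2, 5, and 9) and 6 given PBS as control (mice 3, 4, 7, 8, 11, and 12). The mice carried no transgene or deletion according to the labels, and each library came from 1 mouse. According to the methods, mice were generally sex-matched young adults, and anti-CD40 mice that lacked the usual systemic response to the antibody were removed from the study, so the treated group was a selected group.

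Mammalian chitinases fold as family 18 glycosyl hydrolases. Chit1, chitotriosidase, and Chia1, acidic mammalian chitinase, cut chitin, whereas the chitinase-like proteins have lost a catalytic residue and bind sugars without cutting them. Chil3 and Chil4, also called Ym1 and Ym2, occur in rodents and not in humans, and Chil1 is the mouse counterpart of the human glycoprotein YKL-40, a serum marker of inflammation and liver fibrosis. The resistin-like molecules are small, cysteine-rich secreted proteins. Resistin (Retn) comes from fat cells in mice, Retnla (RELMα, or FIZZ1) from fat tissue and from macrophages exposed to interleukin-4 or interleukin-13, Retnlb (RELMβ) from gut goblet cells, and Retnlg (RELMγ) from bone marrow and neutrophils. Chil3 and Retnla are widely used together as signs of type 2, or alternative, macrophage activation, in which the interleukin-4 receptor signals through STAT6, but Chil3 is also abundant in neutrophils and their precursors.

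The members lie in 3 clusters of the mm10 genome. Chil3 (chromosome 3, 106147554 to 106167564) and Chil4 (chromosome 3, 106201491 to 106219479) are 33.93 kb apart with no other gene of the table between them, and Chia1 starts the same cluster 15.44 kb away from Chil3. Chil1 (chromosome 1, 134182404 to 134190031) lies 30.86 kb from Chit1 (chromosome 1, 134111242 to 134151540). Retnla (chromosome 16, 48842552 to 48844461) lies 28.15 kb from Retnlg (chromosome 16, 48872608 to 48874498). Each cluster therefore held 1 gene that was high after anti-CD40 beside 1 that was not, and the pairs are printed together for that reason.

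The promoter windows of Chil3 and Chil4 run from 250 bases before to 50 bases after the annotated gene start (RefSeq, build GRCm38.p6, 5′ to 3′ on the strand of the gene). That of Chil3 covers chr3:106167515-106167814 on the minus strand and that of Chil4 chr3:106219430-106219729 on the minus strand. Capitals mark matches to the motifs listed after the sequences.
Chil3: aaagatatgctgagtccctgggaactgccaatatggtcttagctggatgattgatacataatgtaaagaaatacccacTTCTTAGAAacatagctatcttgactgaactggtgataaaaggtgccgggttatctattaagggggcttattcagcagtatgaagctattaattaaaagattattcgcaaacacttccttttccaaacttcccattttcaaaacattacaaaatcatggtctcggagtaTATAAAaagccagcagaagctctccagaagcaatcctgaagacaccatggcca
Chil4: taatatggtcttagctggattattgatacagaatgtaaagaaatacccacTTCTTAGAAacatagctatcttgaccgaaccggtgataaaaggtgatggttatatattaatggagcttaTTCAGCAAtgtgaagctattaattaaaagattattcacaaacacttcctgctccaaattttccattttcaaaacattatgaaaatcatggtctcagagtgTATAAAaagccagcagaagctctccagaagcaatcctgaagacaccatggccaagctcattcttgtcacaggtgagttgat

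The windows of Retnlg (chr16:48872358-48872657, plus strand) and Retnla (chr16:48842359-48842658, plus strand) are shown in the same way, because these neighbours differed in level in the treated mice.
Retnlg: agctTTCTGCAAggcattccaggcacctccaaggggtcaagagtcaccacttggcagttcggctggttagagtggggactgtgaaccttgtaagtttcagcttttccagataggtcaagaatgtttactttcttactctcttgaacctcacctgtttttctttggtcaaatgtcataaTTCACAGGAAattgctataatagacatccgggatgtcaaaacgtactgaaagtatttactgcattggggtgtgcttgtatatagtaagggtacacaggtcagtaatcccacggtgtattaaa
Retnla: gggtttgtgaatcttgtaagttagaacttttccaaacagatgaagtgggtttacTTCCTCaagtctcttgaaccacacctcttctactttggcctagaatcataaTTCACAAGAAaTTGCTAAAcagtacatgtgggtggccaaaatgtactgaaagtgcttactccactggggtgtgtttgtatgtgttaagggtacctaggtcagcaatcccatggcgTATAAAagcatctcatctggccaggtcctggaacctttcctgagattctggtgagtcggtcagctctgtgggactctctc

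Over the bases that could be aligned, the windows of Chil3 and Chil4 were 92.6% identical (251 of 271 bases) and those of Retnlg and Retnla 79.1% identical (178 of 225 bases). The motifs searched, on both strands, were the TATA box TATAAA, TTC and GAA separated by 3 bases (a spacing that STAT factors bind), TTC and GAA separated by 4 bases (the spacing that STAT6 prefers), the C/EBP motif made of TT, any 2 bases, and GCAA, and the ETS motif GAGGAA, which PU.1 binds. Among 32851 promoter windows of the mouse, these were found in 13.6%, 8.3%, 6.95%, 10.8%, and 28.3%, respectively. No matches of different motifs overlapped in the members.

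The 3-base STAT spacing was found in Chil3 (TTCTTAGAA, bases -172 to -164 from the start) and in Chil4 (the same letters, -200 to -192). Site and flanks were alike, with 0 of 20 flanking bases differing, and in both genes the motif began 169 bases before the TATA box, so the windows of these genes differ by a shift of 28 bases in the annotated start. A C/EBP match stood in Chil4 (TTCAGCAA, -131 to -124) and not in the window of Chil3. The 4-base spacing was found in Retnlg (TTCACAGGAA, -72 to -63) and in Retnla (TTCACAAGAA, -145 to -136), at sites that differ in 1 of 10 bases with 5 of 20 flanking bases differing. Both also held a C/EBP match (TTCTGCAA at -246 to -239 in Retnlg, TTGCTAAA on the other strand at -134 to -127 in Retnla), and Retnla alone of the 6 held an ETS match. Chil1 and Chit1 held none of the 5 motifs in these windows. For Chil1 and Retnla, the RefSeq start behind the window was not the gene start printed above. The Chil1 window (chr1:134181906-134182205) ended before the printed start of 134182404, so the bases next to that start were not searched. Distances in Retnla run from its RefSeq start. A match is a description of letters and not a sign of binding, and none of these features divided the members that were high after anti-CD40 from those that were not.

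**Figure D1:**
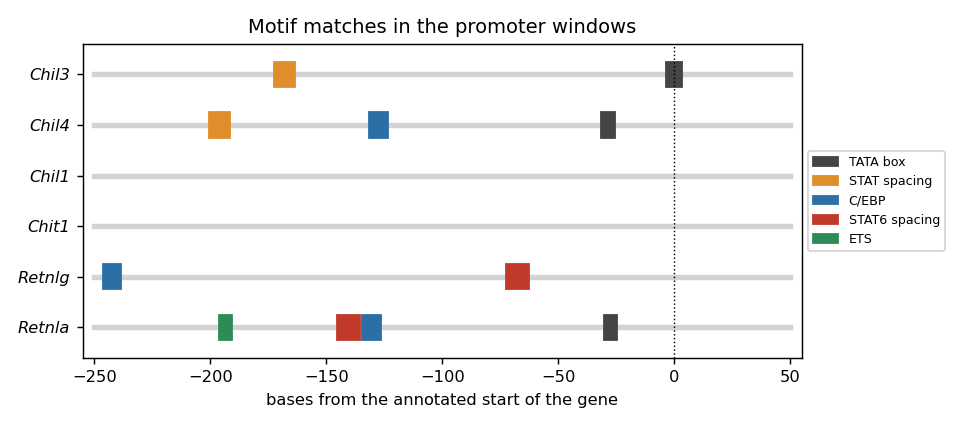
Motif matches in the promoter windows of the 6 genes, with distance from the start annotated in RefSeq in bases on the x axis and 1 coloured block per match. Chil3 and Chil4 share the 3-base STAT spacing and the TATA box at a shift of 28 bases, Retnlg and Retnla share the 4-base spacing, and Chil1 and Chit1 show no match.

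Liver RNA was sequenced from the 3′ end of transcripts (QuantSeq) on a NextSeq 500, and the deposited values are FPKM, fragments per kilobase of transcript scaled to mapped reads. The table has a floor of 0.01 FPKM, its read totals are not given, and FPKM divides 3′ reads by a length that does not affect them, so levels are compared between mice for 1 gene and not between genes. The steps between low values show that 1 read was worth about the same in each mouse, from 0.884 to 1.15 times the geometric mean of the 9 mice. Control mice 4 and 7 stood apart from the other control mice. Among 13807 genes tested, they were the 2 highest control mice in 15.95%, but in 7 of 8 mesothelial and 6 of 10 adipose marker genes. The same held in 9 of 23 neutrophil and 7 of 17 inflammatory monocyte markers. Mouse 4 was the highest control mouse in 27.44% of all genes tested and in 8 of 8 erythroid genes. It was highest in 12 of 23 neutrophil and 11 of 17 monocyte markers. In anti-CD40 mouse 5, 15 of 16 pancreas markers were at their highest. Results for the members that rest on mice 4 and 7 are given with and without them. The labels give no sequencing batch.

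Chil3, Retnlg, and Chil1 were low in control livers and abundant in every anti-CD40 liver. Chil3 reached 46.9, 33.8, and 39.2 FPKM in anti-CD40 mice 2, 5, and 9, and in control mice its lowest, median, and highest values were 0.0362, 0.0406, and 0.327 FPKM. The lowest treated mouse was 103.5 times as high as the highest control mouse, which was mouse 4. The group means were 40.002 ± 6.57 FPKM (SD, n = 3) and 0.0879 ± 0.117 FPKM (SD, n = 6), with the control mean raised by mouse 4 alone, since the 4 control mice other than mice 4 and 7 had 0.0411 ± 0.00215 FPKM (SD).

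Retnlg, the neutrophil-associated resistin-like gene, had 47.1, 44.2, and 40.2 FPKM in anti-CD40 mice 2, 5, and 9. Its control values ran from 0.010 (the floor, in mouse 12) through a median of 0.342 to 2.17 FPKM in mouse 4, with mouse 7 next at 1.80. The groups did not overlap, and the lowest treated mouse was 18.5 times as high as the highest control mouse. The means were 43.9 ± 3.50 FPKM (SD, n = 3) and 0.800 ± 0.937 FPKM (SD, n = 6), and the latter was 0.207 ± 0.169 FPKM in the 4 control mice other than mice 4 and 7.

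Chil1 was the most even of these genes among the treated mice, at 9.27, 9.76, and 9.72 FPKM, a coefficient of variation of 2.82% against 16.4% for Chil3 and 7.97% for Retnlg. The control mice had a lowest, median, and highest value of 0.010, 0.0854, and 0.119 FPKM. Here mice 4 and 7 were not the highest control mice. The lowest treated mouse exceeded the highest control mouse, mouse 8, by 78.2 times, and the means were 9.58 ± 0.270 (SD, n = 3) and 0.0740 ± 0.0455 FPKM (SD, n = 6).

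**Figure D2:**
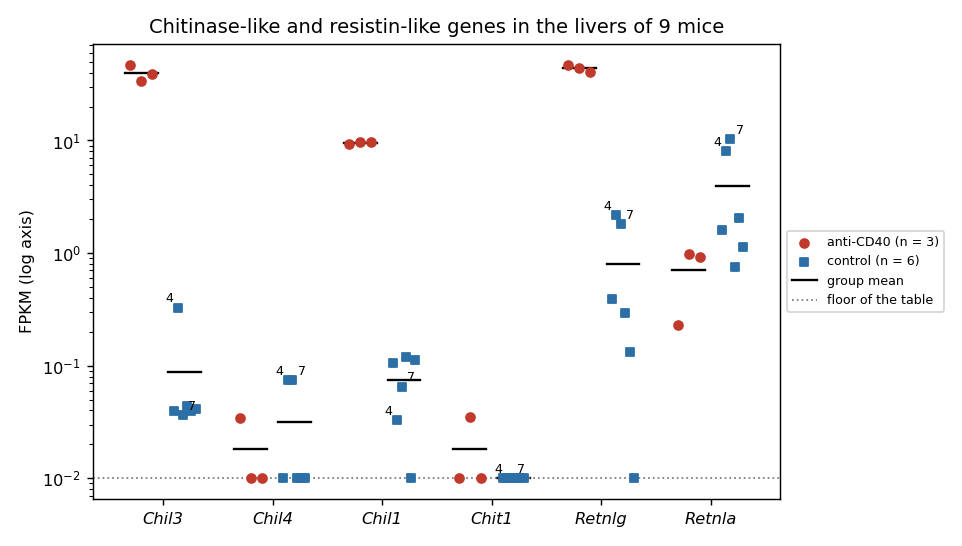
FPKM of the 6 genes in each mouse on a log axis, with red circles for the 3 anti-CD40 mice, blue squares for the 6 control mice, black bars for group means, a dotted line for the floor of 0.01, and the numbers 4 and 7 beside those control mice. Chil3, Chil1, and Retnlg separate the groups completely, Chil4 and Chit1 sit at or near the floor in both, and Retnla is highest in control mice 4 and 7.

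The control values of these genes rest on few reads. Read from the steps between low values, and taking the smallest whole numbers that fit, Chil1 had 0 to 3 reads in each control mouse and 12 in all (exact Poisson 95% interval 6.2 to 21), and Chil3 had 1 read in each control mouse but 9 in mouse 4, or 14 in all (7.65 to 23.5). Retnlg had 39 control reads in all (27.7 to 53.3). These intervals cover counting error only. In the treated mice, the same steps put Chil3 at about 1388, 941, and 1017 reads, so the treated levels were well sampled and the ratio between groups was limited by the control mice. Within bulk tissue, fewer cells of a type and less RNA per cell cannot be told apart, and the same holds for more of either.

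On the scale of log2(FPKM + 0.1), which understates the change of genes near the floor, the difference between anti-CD40 and control mice was 7.88 (SE 0.35) for Chil3, 6.38 (SE 0.85) for Retnlg, and 5.84 (SE 0.24) for Chil1. By size from the highest, these were the differences ranked 8, 19, and 25 among the 13807 genes with a mean of at least 0.1 FPKM. All 3 were among the genes called at an adjusted p under 0.05 with limma, out of 4 members that passed the filter on low values, where 45.1% of all genes tested were called, 23.5% as higher after anti-CD40 and 21.7% as lower. They also had no overlap between groups, as did 42.4% of all genes tested. The members were selected on this same contrast and the filter kept genes that were high in either group, so nothing is read from these counts.

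The near relatives of Chil3 and Chil1 stayed at or near the floor. Chil4 had 0.0346 FPKM in anti-CD40 mouse 2 and the floor value in mice 5 and 9, and among the control mice it was above the floor only in mice 4 and 7, at 0.0743 and 0.0739 FPKM. By the smallest whole numbers that fit, these values amount to 1 read in a treated mouse and 2 reads in each of those control mice. Mouse 2, in which Chil3 had about 1388 reads, thus had 1 read for Chil4. The log2 difference of Chil4 was -0.12, and it was 0.10 without mice 4 and 7, neither of them tested. The Chil3 and Chil4 transcripts were 94.4% identical over 1538 aligned bases, and in the last 300 bases, where 3′ libraries draw their reads, 30 of 299 aligned bases differed with a longest identical run of 35. The authors allowed up to 14 mismatches in an alignment, so reads of this pair could be assigned to the wrong member, and how many were was not tested.

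Chit1, the active chitinase next to Chil1, had 0.0349 FPKM in anti-CD40 mouse 5 and the floor value in the other 8 mice. That is at least 1 read, since the smallest whole number that fits a single value is always 1. Chil4 and Chit1 had a mean under 0.1 FPKM and were not tested. At levels so near the floor, a fall or a small rise in either was not detectable. The transcripts of Chil1 and Chit1 were 65.5% identical, and those of Chil3 and Chil1 62.8% identical, so these are more distant pairs than Chil3 and Chil4.

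Retnla, the gene most often used beside Chil3 as a mark of type 2 macrophage activation, did not follow it. It had 0.231, 0.981, and 0.921 FPKM in anti-CD40 mice 2, 5, and 9, and a lowest, median, and highest value of 0.750, 1.82, and 10.2 FPKM in the control mice. The groups overlapped, since control mouse 8, at 0.750, was below treated mice 5 and 9. The means were 0.711 ± 0.417 (SD, n = 3) and 3.97 ± 4.09 FPKM (SD, n = 6), and the difference on the log2 scale was -1.87 (SE 0.80, 95% interval -3.64 to -0.10), which was not among the genes called.

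The control mean of Retnla was set by mice 7 and 4, at 10.2 and 8.05 FPKM. The other 4 control mice had between 0.750 and 2.03 FPKM, or 1.38 ± 0.557 FPKM (SD). Without mice 4 and 7, the log2 difference was -0.97 (SE 0.47). Retnlg and Retnla were thus both highest among control mice in mice 4 and 7, although they lay on opposite sides of the comparison. Their transcripts were 84.5% identical, and 52 of 288 aligned bases of the last 300 differed.

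Resistin itself showed the same control mice. Retn had 20.8 and 17.1 FPKM in mice 4 and 7, between 0.010 and 2.19 FPKM in the other control mice, and 0.010, 0.639, and 0.137 FPKM in anti-CD40 mice 2, 5, and 9. Its log2 difference of -3.003 (SE 1.48) did not pass the test (adjusted p = 0.124 from limma), and it was -1.43 (SE 1.03) without mice 4 and 7 (adjusted p = 0.279 from limma). Of 20 alternatives it passed in 1, without control mouse 12, and its range was -3.86 to -1.43.

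Many but not all markers of fat tissue were high in the same mice, which were the 2 highest control mice in 6 of 10 adipose markers tested. Adipoq, which encodes the fat cell hormone adiponectin, had 26.3 and 35.0 FPKM in mice 4 and 7 and between 0.270 and 3.09 FPKM in the other control mice, and the treated mice had 1.06, 0.608, and 0.552 FPKM. Cfd, or adipsin, had 277 and 302 FPKM in mice 4 and 7 and at most 19.8 FPKM in the rest, but 49 genes share its locus in the table. Plin1, which coats fat cell lipid droplets, had 1.32 and 1.22 FPKM in these mice and at most 0.213 FPKM in any other. Other markers of the list went the other way or did not peak there. Pnpla2 had 18.8 and 22.6 FPKM in mice 4 and 7 and 23.9 to 50.6 FPKM in the other control mice. Slc7a10 was likewise lowest among control mice in mice 4 and 7, and Car3 and Plin4 were not highest there. Of the 10 adipose markers tested, 1 was higher after anti-CD40 (Plin4), 2 were lower (Car3 and Adrb3), and 7 did not pass, with a median log2 difference of -0.67 against 0.0056 over all genes. Over all genes tested, 23.5% were higher and 21.7% lower. Without mice 4 and 7, 3 of 9 adipose markers tested were higher and 3 lower, against 3566 and 3345 of 13755 genes. The differences of Adipoq and Cfd were then -0.94 (SE 0.68) and -1.37 (SE 0.89), which did not pass the test. The summed level of the 12 adipose markers was 407 to 572 FPKM in treated mice and 340 to 1399 FPKM in control mice, and its part in the Retnla result was not tested.

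**Figure D3:**
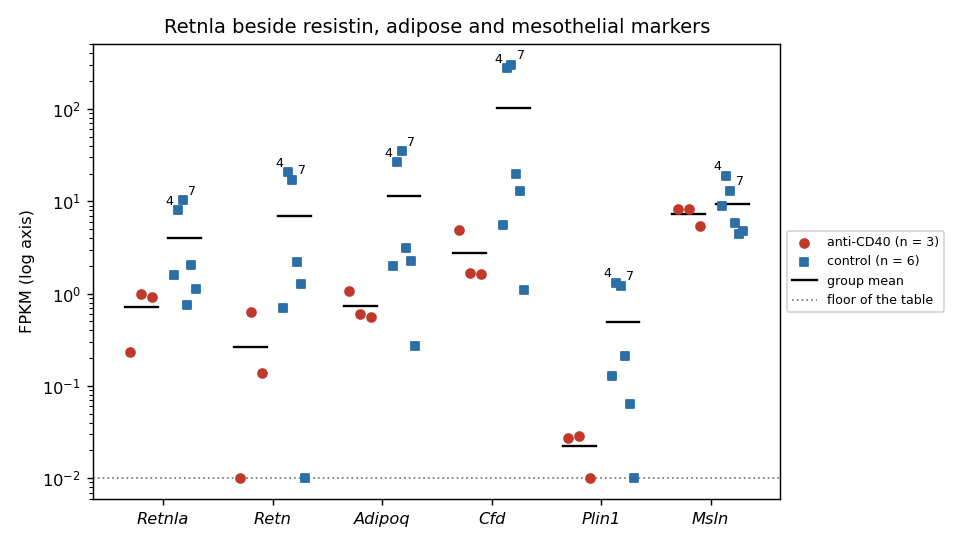
FPKM of Retnla beside resistin (Retn), the adipose markers Adipoq, Cfd, and Plin1, and the mesothelial marker Msln, in each mouse on a log axis, with symbols, bars, and mouse numbers as in the plot of the members by mouse. Control mice 4 and 7 are the highest of all 9 mice for each of these genes.

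The other members of the families gave no such rise. Of 8 further genes listed, Chil5 had no entry under that name, and 4 of the other 7 passed the filter on low values. Ctbs, a lysosomal chitobiase, was the only one called, with 6.90, 6.08, and 6.35 FPKM in anti-CD40 mice against 3.93 to 6.18 FPKM in control mice, a log2 difference of 0.45 (SE 0.15, adjusted p = 0.0319 from limma), and the groups overlapped. That call was lost in 8 of 20 alternatives, among them the ones that left out mouse 2, 3, 5, 9, 11, or 12 (range of the difference 0.37 to 0.81). Chid1, a chitinase-domain protein of the secretory pathway, had a log2 difference of 0.41 (SE 0.16, adjusted p = 0.0547 from limma). Chia1, at the Chil3 locus, had 0.585 and 0.934 FPKM in control mice 7 and 8 and at most 0.0342 FPKM in the other 7 mice (log2 difference -0.88, SE 0.78, adjusted p = 0.383 from limma). Chil6, Ovgp1, and Retnlb were not tested, and Retnlb, the goblet cell resistin-like gene, was above the floor in mouse 2 alone, at 0.461 FPKM. The smallest whole number that fits a single value is always 1 read, so its count was not settled.

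Of 14 receptors and partners of these secreted proteins, 11 passed the filter, of which 4 were higher, 1 was lower, and 6 did not pass the test. The share called was close to the 45.1% of all genes tested, so the count is no result about the list. Lgals3, galectin-3, a sugar-binding protein of macrophages, went from 4.54 ± 1.37 FPKM (SD, n = 6) in control mice to 62.1 ± 8.29 FPKM (SD, n = 3), a log2 difference of 3.78 (SE 0.22, adjusted p = 9.82e-07 from limma). Cd44, a hyaluronan receptor, rose by 2.86 (SE 0.20, adjusted p = 2.88e-06 from limma), Lgals3bp by 1.94 (SE 0.22, adjusted p = 6.21e-05 from limma), and Btk, a tyrosine kinase of B and myeloid cells reported to bind Retnla, by 1.34 (SE 0.25, adjusted p = 0.0015 from limma).

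Tmem219, which forms a receptor for Chil1 together with Il13ra2, moved the other way. It had 44.5, 44.0, and 45.6 FPKM in the anti-CD40 mice and a lowest, median, and highest value of 68.3, 74.1, and 84.4 FPKM in the control mice, a log2 difference of -0.74 (SE 0.10, adjusted p = 0.000199 from limma) that became -0.38 (SE 0.10) when the values were rescaled without the Saa genes. In none of the 5 called genes did the groups overlap. Il13ra2 itself did not pass, with a log2 difference of 0.10 (SE 0.33, adjusted p = 0.830 from limma), and Ptgdr2, a chemoattractant receptor proposed to bind Chil1, was at the floor in all 9 mice. The median log2 difference of the list was 0.35. With the acute phase genes Saa1 to Saa3 removed and the remaining values of each mouse brought to 1 total, the median over all genes moved from 0.0056 to 0.35, and on that scale 7 of the list were higher and 1 lower, against 5635 and 1647 of all genes.

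The genes of type 2 activation did not move as 1 group. Of 31 listed genes, 26 passed the filter on low values, and 10 were higher, 4 lower, and 12 did not pass, where 23.5% of all genes tested were higher and 21.7% lower. Their median log2 difference was 0.23. With the Saa genes removed and the values rescaled, 13 were higher and 2 lower, against 5635 and 1647 of all genes. The T cell cytokines of the type 2 response were barely seen. Il4 was above the floor in anti-CD40 mice 2 and 5 alone, Il13 in control mouse 3 alone, and Il5 in no mouse. The smallest whole number that fits each of these values is 1 read, and the true counts may be higher. The epithelial and stromal cytokines of the list were higher, with Il33 rising from 1.54 ± 0.387 to 6.41 ± 1.26 FPKM (SD, log2 difference 2.01, SE 0.22, adjusted p = 4.28e-05 from limma). Tslp had a log2 difference of 1.09 (SE 0.33, adjusted p = 0.0204 from limma). Its groups overlapped, and 3 genes share its locus in the table. Il4ra, a receptor chain for interleukin-4 and interleukin-13, rose from 11.0 ± 2.64 to 18.7 ± 2.71 FPKM (SD), a log2 difference of 0.78 (SE 0.19, adjusted p = 0.00774 from limma), and Stat6 had a difference of 0.25 (SE 0.14, adjusted p = 0.154 from limma), which passed on the rescaled values alone (0.61, SE 0.12, adjusted p = 0.00215 from limma).

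Fcer2a, the low-affinity IgE receptor CD23 of B cells and macrophages, had the largest rise of the list at 4.87 (SE 0.41), followed by the chemokine Ccl22 at 4.48 (SE 0.27), the transcription factor Egr2 at 2.80 (SE 0.23), and the fungal sugar receptor Clec7a at 2.35 (SE 0.36). Their adjusted p-values from limma were 8.73e-06, 1.24e-06, 7.3e-06, and 0.000449. The scavenger receptor Cd163, which is also a Kupffer cell marker, fell from 7.26 ± 3.73 to 0.0634 ± 0.0561 FPKM (SD), and the eosinophil chemokine Ccl24 from 11.3 ± 2.87 to 1.04 ± 0.330 FPKM (SD), with log2 differences of -5.39 (SE 0.43) and -3.32 (SE 0.24). Both passed the test (adjusted p = 6.25e-06 and 3.29e-06 from limma). Of the classic markers, Mrc1, the mannose receptor, was lower (-0.62, SE 0.21, adjusted p = 0.0334 from limma), and Arg1, which is also a hepatocyte urea cycle enzyme, did not pass (-0.20, SE 0.19, adjusted p = 0.407 from limma). The call of Mrc1 was lost in 8 of 20 alternatives, among them the rescaled values (-0.26, SE 0.23, adjusted p = 0.376 from limma) and those without mouse 2, 3, 5, 7, or 9, and the sign of Arg1 turned in 2.

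**Figure D4:**
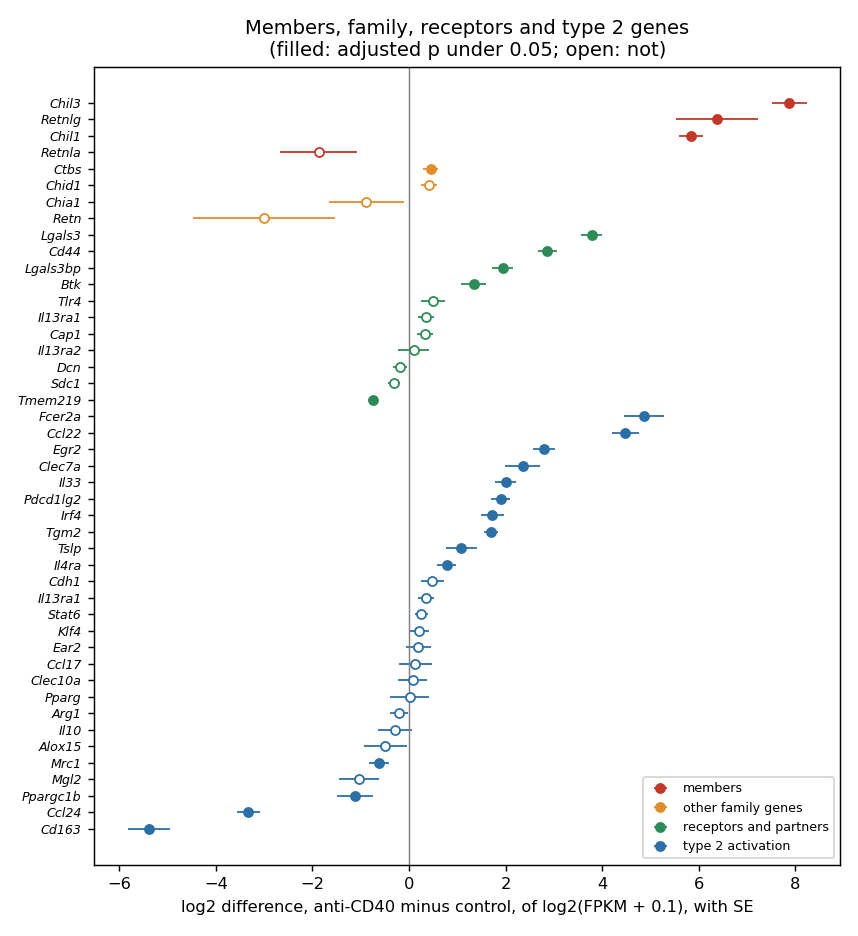
Difference between anti-CD40 and control mice in log2(FPKM + 0.1), with SE, for the tested genes among the members, the rest of the families, receptors and partners, and type 2 activation genes, ordered by size within each list, with filled symbols for an adjusted p under 0.05 from limma. Chil3, Retnlg, and Chil1 lie at 5.84 or above, Retnla at -1.87, and the type 2 genes spread from -5.39 to 4.87.

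Markers of neutrophils and inflammatory monocytes moved with Chil3, Retnlg, and Chil1. Of 23 neutrophil markers tested, 22 were higher after anti-CD40 and 1 was lower (Cebpe, a granulocyte transcription factor, not called on the rescaled values), with a median log2 difference of 3.78. For this and the other marker lists, the share over all genes tested was 23.5% higher and 21.7% lower. Ly6g had no entry in the table, and 4 markers were below the filter (Cd177, Mpo, Elane, and Mrgpra2b). Mpo and Elane encode myeloperoxidase and elastase, granule enzymes of neutrophils. Other such enzymes passed the filter and were higher without overlap. They were Prtn3, with a log2 difference of 2.69 (SE 0.48, adjusted p = 0.00114 from limma), and Ctsg, with 1.47 (SE 0.31, adjusted p = 0.00308 from limma). In the table, 49 genes share the locus of Prtn3 and Elane. The summed level of the 27 neutrophil markers was 7014 to 7757 FPKM in treated mice and 35.9 to 176 FPKM in control mice, with mouse 4 the highest control mouse. S100a8, S100a9, Lcn2, and Il1r2 led the list, and Lcn2 is also an acute phase gene of hepatocytes. Among the 17 inflammatory monocyte markers tested, 15 were higher and 2 lower, with a median of 2.93, led by Ly6c2, Clec4e, Vcan, and Cd14. Hp, which hepatocytes also make, and Mgst1, which was lower after anti-CD40, together made up 94.0% to 96.5% of the summed level of all 18 (14450 to 24140 FPKM in treated and 5788 to 9562 FPKM in control mice). The sum of the other 16 was 849 to 1093 FPKM in treated mice and 289 to 378 FPKM in control mice. It still holds F10, the other marker that was lower after anti-CD40. F10 had 201 to 260 FPKM in control mice, most of each control sum, and 140 to 158 FPKM in treated mice. Because FPKM is not comparable between genes in 3′ data, each sum follows its most abundant genes.

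Resident macrophage markers went down in the same livers. Of 16 Kupffer cell markers, 0 were higher and 14 lower, with a median log2 difference of -2.07 and a summed level of 370 to 427 FPKM after anti-CD40 and 995 to 1380 FPKM in control mice. Clec4f, the C-type lectin that defines Kupffer cells in mice, fell from 20.8 ± 3.17 to 0.107 ± 0.105 FPKM (SD). Of the 12 hepatocyte markers, which check the tissue, 3 were higher and 8 lower, with a median of -1.01, and none was at the floor. Over all genes tested, 23.5% were higher and 21.7% lower. Eosinophil markers, of cells of type 2 responses, were low. Only 1 of 8, Prg2, passed the filter, and it was not called. It was called as higher with array weights, on the values rescaled without the Saa genes, and without mice 4 and 7. Ear1 was at the floor in every mouse, and Epx had a highest value of 0.0195 FPKM. The sum was 0.820 to 0.960 FPKM in treated and 0.0871 to 1.11 FPKM in control mice. The overlap came from control mouse 4, since the other 5 control mice reached at most 0.347 FPKM, and the untested Siglecf had 0.196 to 0.234 FPKM in treated mice and at most 0.0659 FPKM in control mice. The part of each of these cell types in the levels of the members was not tested.

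Mesothelial, erythroid, and pancreas markers showed the libraries that stood apart. None of 8 mesothelial and 8 erythroid markers tested was called, against 45.1% of all genes tested, and Hba-a1 was at the floor in all mice. With quantile normalization, on the rescaled values, and without mice 4 and 7, 1 mesothelial marker was called as higher in each case. The mesothelial sum was 51.4 to 59.1 FPKM in treated and 41.5 to 107 FPKM in control mice, and the erythroid sum 4183 to 14350 and 7505 to 50620 FPKM. Pancreas markers summed to 1527 FPKM in anti-CD40 mouse 5 and 28.5 to 196 FPKM elsewhere, 2 of 15 tested were called as higher (Cpb1 and Reg1), and Amy2a5 was at the floor throughout. Chil3, Retnlg, and Chil1 in mouse 5 differed from those in mice 2 and 9 by at most 1.39 times.

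**Figure D5:**
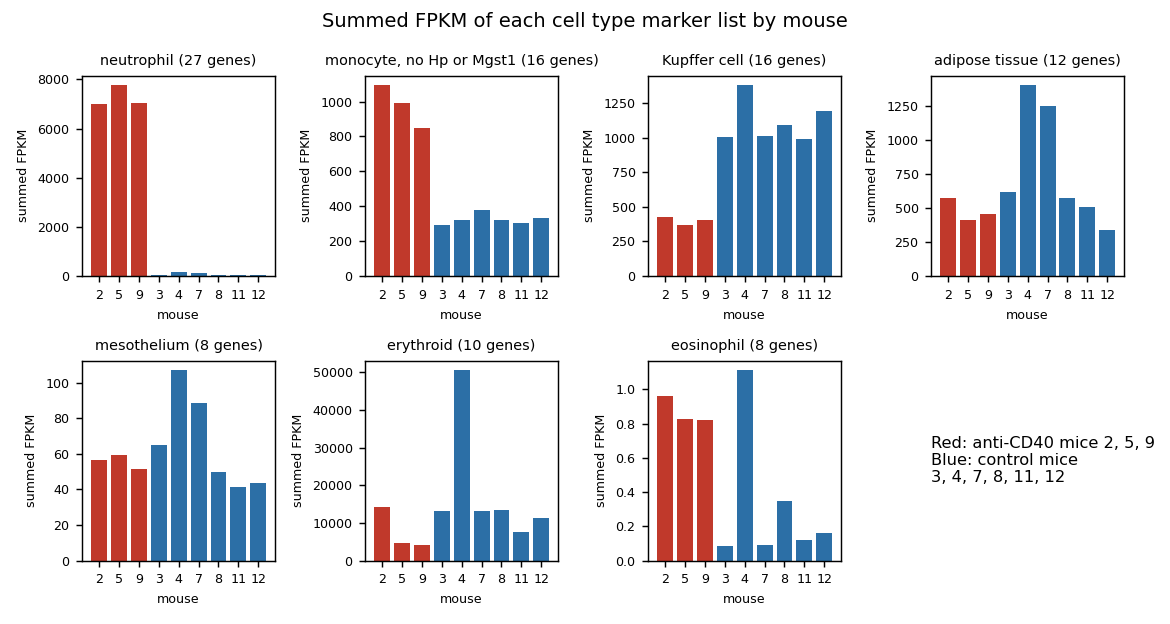
Summed FPKM of 7 cell type marker lists (the monocyte list without Hp and Mgst1 but with F10) in each mouse on linear axes from 0, with red bars for anti-CD40 mice and blue bars for control mice. Neutrophil and inflammatory monocyte sums are higher in every treated mouse than in any control mouse, Kupffer cell sums are lower, and adipose, mesothelial, and erythroid sums peak in control mouse 4.

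The genes most like each member over the 9 mice were found by the root mean square of the differences in log2(FPKM + 0.1) after centring each gene on its own mean. For Chil1 they were Mmp8, a neutrophil collagenase (0.490), Cst7, cystatin F (0.494), and Trem3, a myeloid receptor (0.508). Mmp8 had 4.57, 5.76, and 6.23 FPKM in the anti-CD40 mice and at most 0.0646 FPKM in any control mouse. For Retnlg they were the monocyte chemokine Ccl2 (0.532) and the neutrophil proteins S100a8 (0.605) and S100a9 (0.779), all 3 of which had mice 4 and 7 as their highest control mice, as Retnlg had. S100a8 had 99.2 and 61.3 FPKM in these mice and 12.6 to 20.9 FPKM in the other control mice.

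For Chil3 the most similar genes were the chemokine Ccl20 (0.553), AA467197 (0.590), and the class Ib histocompatibility gene H2-M2 (0.717). Ccl20 was at the floor in all 6 control mice and at 27.6, 21.2, and 14.3 FPKM in anti-CD40 mice 2, 5, and 9. For Retnla they were Ppp1r1a, a phosphatase inhibitor (0.705), Angptl7, an angiopoietin-like protein (0.738), and the homeobox gene Hoxc8 (0.740). All 3 had mice 4 and 7 as their highest control mice, as with Angptl7, which had 3.21 and 2.49 FPKM there and 0.741 to 1.18 FPKM in the others. Such likeness describes a shared pattern over 9 mice that share their libraries and 2 groups, and no more.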

How the data were processed

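RNA from the livers of 9 mice was sequenced by the authors with the QuantSeq 3′ kit. Per the labels and methods, reads were aligned to mm10 with STAR, allowing up to 14 mismatches, and quantified with Cufflinks and Cuffdiff. The authors deposited FPKM, with a floor of 0.01, for 24341 genes, and the 15 genes with a failed estimate were left out here. The annotation they used is not given in the sources used here. Read totals are not given, so depth is relative only. From the steps between low FPKM values, the reads of low genes were estimated, and they were whole within 0.1 reads in every mouse for 71.0% of 3110 such genes. No count test was run, since whole reads were not recovered for nearly all genes.

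The members, lists, and tests were chosen with earlier results of these data known. Mice were grouped by the title and treatment in the labels. Nothing in the labels says that mice of a group were handled in separate experiments, and the paper describes the sequencing as a single experimental replicate. The p-values thus set the group difference against the spread between these mice. They carry no spread between experiments. The deposited FPKM were fitted without further scaling as log2(FPKM + 0.1) with limma (version 3.58.1, under R 4.3.3), using lmFit and trended eBayes, over the 13807 genes with a mean of at least 0.1 FPKM, 2-sided, with Benjamini-Hochberg adjustment over all of them at 0.05. The members' differences are a description.

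Genes named were all members and the family list, up to 6 called genes without overlap from the receptor list and from the type 2 list by size, Il4, Il13, Il4ra, Stat6, Arg1, and Mrc1, up to 4 called genes of each marker list by size, markers at the floor in every mouse, and the 3 genes most like each member with a mean of at least 0.1 FPKM. Not every gene that the rule took is printed. Named outside it, after their values were seen, were Il13ra2, Ptgdr2, Il5, Il33, Tslp, Hp, Mgst1, Prg2, Siglecf, Adipoq, Cfd, Plin1, Msln, Epx, Cebpe, Ly6g, and the neutrophil markers under the filter. Slc7a10, Pnpla2, F10, Prtn3, and Ctsg were also named in that way. Of 188 names listed, 183 matched the table.

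Promoter windows were taken from RefSeq (GRCm38.p6), and identities from alignments with Biopython 1.88. The other steps used Python 3.11.15, pandas 2.3.3, numpy 2.4.6, and matplotlib 3.10.9. The fit and the read steps were tested on simulated data. The alternatives tried were other pseudocounts (0.01 or 1), another filter (none, or a mean of at least 1 FPKM), other scalings and spread models, stricter thresholds, and leaving out each mouse. Leaving out mice 4 and 7 together was chosen after seeing the data. Protein sequences were not analysed here.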

Additional observations from a re-analysis of the deposited data

Results flagged for a closer look

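Among 38 genes named in the report, other than the marker lists, that varied among the 6 control mice, 9 had 1 control mouse far from the others, by Dixon's ratio of the gap to the nearest mouse over the whole range above its 95% critical value for 6 mice. For independent genes with normally distributed values, chance would give about 1 in 20, or 1.9 of 38. FPKM need not be normal, these genes share their libraries, and Ccl2 and S100a9 were named for likeness to Retnlg. That rate is therefore no measure of chance here. Of the 9, 7 were in mouse 4. The ratio was 0.973 for Chil3 (mouse 4 at 0.327 FPKM, the next control mouse at 0.0440), 0.649 for Lgals3 (7.06 against 4.64 FPKM), 0.675 for Fcer2a (0.529 against 0.211 FPKM), 0.741 for Egr2 (0.105 against 0.0402 FPKM), 0.63 for Clec7a (30.5 against 16.0 FPKM), 0.629 for Ccl2 (10.3 against 4.18 FPKM), and 0.686 for S100a9 (50.3 against 18.7 FPKM), all with mouse 4 as the high control mouse. For Chil6 (ratio 1, mouse 8 at 0.0401 FPKM) and Il13 (ratio 1, mouse 3 at 0.0524 FPKM) the other 5 control mice were at the floor of 0.01, and the single value stands for 1 read. Erythroid, neutrophil, adipose, and mesothelial marker sums were also highest among control mice in mouse 4, and their part in these values was not tested.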

How the results depend on the processing

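The log2 differences of Chil3, Retnlg, and Chil1 stayed positive and past the threshold in all 20 alternatives, with ranges of 5.23 to 9.17, 4.79 to 7.37, and 3.302 to 7.10, the pseudocount moving them most. The highest for Retnlg, 7.37 (SE 0.46), came without control mice 4 and 7. The difference of Retnla stayed negative but was past the threshold with quantile normalization (-2.23), with array weights (-1.76), and without control mouse 8 (-2.20), over a range of -2.20 to -1.32 when each mouse was left out. The difference of Chit1 was 0.10 and became 0.39 with a pseudocount of 0.01, and it was 0 to 0.15 when each mouse was left out. The count of family genes called, 1 of 4, was 0 with no filter, 0 at an adjusted p under 0.01, 0 with a fold change of at least 2, 2 with array weights, 2 after leaving out Saa1, Saa2, and Saa3 and rescaling, and 0 to 2 when each mouse was left out. The receptors and partners called, 5, became 8 with that rescaling, and 8 without control mice 4 and 7, a choice made after seeing the data. Requiring a fold change of at least 2 left 3142 of 6230 genes called. Chil4 and Chit1 gave no value among genes with a mean of at least 1 FPKM. No result changed direction among those called. The depth limits Chil4, Chit1, Chil6, Retnlb, Il4, and Il13, each of which rests on a few reads by the smallest whole numbers that fit. No paired analysis was possible because the groups share no mouse number.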
